A study of Rattus norvegicus with 10 samples.

Results

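The cluster that runs from miR-379 to miR-410 is a group of microRNA (miRNA) hairpins in the imprinted Dlk1-Dio3 locus, and its mature products were followed here in the hippocampus of rats whose carotid arteries had been closed. The members were chosen by name: a mature miRNA belonged to the group if its number was among the 36 of the cluster's hairpins and if its mean over the 10 libraries was at least 1 RPM, a read count scaled to the size of its library. Of the 36 names, 34 had a row in the deposited table, while miR-654 and miR-1197 did not. These names matched 65 rows, of which 54 reached the level, out of 474 miRNAs that reached it and 765 listed. The 54 members came from 33 of the names, as 22 5p arms, 29 3p arms and 3 rows with no arm in their name. The labels describe Wistar rats that were 10 weeks old, whose hippocampal small RNA was sequenced in 5 libraries of sham-operated rats and 5 of the 2-VO group. In 2-VO both common carotid arteries are occluded, which lowers the blood supply of the forebrain and serves as a model of chronic cerebral hypoperfusion. Sham rats underwent an operation too, and the labels name no gene change, drug or sampling time for either group. Whether each library is a different animal is not in the labels, and the p-values below measure the spread between libraries, which may be technical.

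Genes of the Dlk1-Dio3 locus are imprinted, and its miRNAs are made from the maternally inherited chromosome only. The cluster's hairpins lie side by side in long noncoding transcripts, and Drosha and Dicer cut each hairpin into a 5p and a 3p arm, either of which can be loaded into Argonaute. A mature miRNA finds its targets mainly through its seed, the bases at positions 2 to 8. In the brain the cluster is known as a set of neuronal miRNAs: in cultured neurons its transcription responds to activity through the factor Mef2, and several members, miR-134 first among them, regulate dendrites and spines. Members of the equivalent human and mouse locus have also been studied in the growth of blood vessels after limb ischaemia.

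The mature sequences of the members on which the results turn are shown first, since the seed sets what each could bind. They are from RefSeq (GRCr8 build), in whose table all 54 members were found, and lie on chromosome 6, on the plus strand except for miR-409b and miR-299b-5p. Capitals mark the seed. The 10 most abundant members, in falling order, were:
miR-379-5p: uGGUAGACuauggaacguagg
miR-411-5p: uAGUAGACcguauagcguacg
miR-300-3p: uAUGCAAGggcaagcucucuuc
miR-323-3p: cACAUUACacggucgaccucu
miR-541-5p: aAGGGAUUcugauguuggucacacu
miR-543-3p: aAACAUUCgcggugcacuucu
miR-409b: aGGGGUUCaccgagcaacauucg
miR-382-3p: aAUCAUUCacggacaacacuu
miR-382-5p: gAAGUUGUucgugguggauucg
miR-495: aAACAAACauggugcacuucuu

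The members known from activity-regulated and synaptic work, or from vessel growth, that are not among those 10 had these sequences, again with the seed in capitals. miR-381-3p is shown as the 18 bases that RefSeq lists, the shortest of the members, whose mature lengths ran from 18 to 25 bases.
miR-134-5p: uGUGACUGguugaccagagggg
miR-485-5p: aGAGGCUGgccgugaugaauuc
miR-329-3p: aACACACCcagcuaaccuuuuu
miR-381-3p: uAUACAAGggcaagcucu
miR-410-3p: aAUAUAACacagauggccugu
miR-487b-3p: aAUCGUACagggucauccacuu
miR-494-3p: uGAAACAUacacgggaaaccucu

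Although the hairpins are neighbours, their mature seeds were nearly all different: the 54 members carried 52 distinct seeds. The pairs that shared a seed were miR-381-3p with miR-539-3p, both AUACAAG in RefSeq's RNA letters, and miR-299a-5p with miR-299b-5p, both GGUUUAC. Those not yet shown are printed here to show how far the likeness runs past the seed, in capitals.
miR-539-3p: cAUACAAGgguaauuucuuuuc
miR-299a-5p: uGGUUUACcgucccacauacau
miR-299b-5p: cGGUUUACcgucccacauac

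Another 3 seeds were shared with a miRNA outside the cluster. miR-329-3p, at a mean of 210.2 RPM, shared ACACACC with miR-362-3p at 3.95 RPM. miR-410-3p, at 133 RPM, shared AUAUAAC with miR-344b-1-3p at 76.7 RPM, and miR-1193-3p, at 17.8 RPM, shared AGGUCAC with miR-370-5p of the same locus at 5.75 RPM. In each of these pairs the cluster's miRNA was the more abundant.

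A sequence stretch outside the seed was shared more widely. The letters GGUCCAC, searched as written in mature RNAs (which have a single strand) and not overlapping any other motif searched, stood in 5 of the 54 members (9.26%) and in 0 of the 625 other rows with a RefSeq sequence. Its place in the 5 3p arms is marked by capitals.
miR-379-3p: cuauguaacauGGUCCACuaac
miR-411-3p: uauguaacacGGUCCACuaa
miR-380-3p: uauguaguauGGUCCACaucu
miR-758-3p: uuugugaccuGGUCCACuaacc
miR-412-3p: cuucaccuGGUCCACuagccgu
These arms differed widely in level, from 1.81 RPM for miR-412-3p to 446 RPM for miR-411-3p. A match of letters is a description of the sequences and says nothing about a site. The letters were not among the planned results, and whether such sharing is unusual for a set of this size was not tested. The count of 5 includes miR-379-3p and miR-411-3p, which are alike over nearly their whole length, with 1 mismatch over 20 bases.

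Some members cannot be read alone, because their reads can also stand in another row. The hairpins of the cluster are annotated in part on both strands of the DNA, and in 8 pairs of rows a member lay opposite another mature miRNA over at least 15 bases. In 3 pairs the rows covered exactly the same span: miR-382-3p with miR-3592, miR-369-5p with miR-3578 and miR-539-5p with miR-3576. Their values were the same to within 1 read in every library, at means of 565.8, 213.7 and 47.1 RPM for both rows of each pair. The files do not say that the counting used the strand, so reads of a member and of its opposite-strand partner cannot be told apart. The sequences of the first pair and of the miR-409 pair show the arrangement, in lower case throughout since no part is singled out.
miR-382-3p: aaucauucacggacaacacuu
miR-3592: aaguguuguccgugaaugauu
miR-409a-3p: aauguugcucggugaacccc
miR-409b: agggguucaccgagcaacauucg
The row of miR-409b, 23 bases on the minus strand, spans all 20 bases of miR-409a-3p on the plus strand and reaches beyond them. It stood at a mean of 574.9 RPM, against 53.8 RPM for miR-409a-3p. In the other 4 partial pairs the member was the higher: miR-380-5p at 196.3 RPM against 7.05 RPM for miR-3579, miR-299a-3p at 61.6 RPM against 5.39 RPM for miR-299b-5p, and miR-376a-3p at 8.58 RPM against 2.22 RPM for miR-3595. The last was miR-299a-5p, at 7.34 RPM, with 17 bases opposite miR-299b-3p, which was listed at 0 in every library.

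A further 5 pairs of rows differed by at most 2 bases over 17 or more. The abundant miR-300-3p and miR-381-3p differ over their shared 18 bases by G4A alone, counted from 1 at the 5′ end with the base of miR-300-3p first. That base, in capitals below, lies in the seed, so the miRNAs have different seeds.
miR-300-3p: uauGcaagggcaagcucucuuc
miR-381-3p: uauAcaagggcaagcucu
The former stood at a mean of 1577 RPM and the latter at 47.5 RPM. miR-379-3p and miR-411-3p differ by U11C, with positions counted in miR-379-3p, and stood at 208.9 and 445.6 RPM. The sources used here do not say how the authors treated reads that match a pair of rows almost equally. In all, 15 of the 54 members were in a pair of either kind and 39 in neither.

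The libraries were alike in depth and differed in composition. The reads behind the RPM values numbered 13032805 to 13850400 per library, and the listed miRNAs took 71.9% ± 4.47 of them in the sham group and 69.3% ± 7.24 in the 2-VO group (SD, n = 5 each). No value under 10 reads is listed, so a value of 0 stands for less than 0.722 to 0.767 RPM, the level of 10 reads, depending on the library. The tissue label was checked against 5 miRNAs of neurons and brain (miR-9a-5p, miR-124-3p, miR-128-3p, miR-138-5p and miR-218a-5p), all present in every library at a sum of 181202 to 220876 RPM in the sham and 170653 to 222011 RPM in the 2-VO group. Oligodendrocyte miRNAs, 3 of 3 present, summed to 1865 to 2762 and 1615 to 2923 RPM. Those of choroid plexus and pigment epithelium, 3 of 3 present, summed to 548 to 949 RPM in the sham and 387 to 562 RPM in the 2-VO group, where 4 of the 5 sums lay below all sham sums. Red blood cell miRNAs, 3 of 3 present, summed to 129.8 to 155 and 84.1 to 215 RPM, and hindbrain miRNAs, 2 of 2 present, to 4.80 to 27.9 and 12.02 to 33.9 RPM. Of the 8 sensory and epithelial miRNAs 4 to 7 were above 0, and miR-141-3p was listed at 0 throughout. Their sum was 10.3 to 23.8 RPM in the sham and 12.02 to 29.6 RPM in the 2-VO group other than 2-VO replicate 3, which stood at 82.8 RPM. In bulk tissue fewer cells of a type and less RNA per cell cannot be told apart, and the part of these differences in the members' values was not tested.

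The cluster took a small and steady share of hippocampal miRNA. Its 54 members summed to 2.48% ± 0.147 of the listed RPM in the sham group, from 2.23% to 2.63%, and to 2.39% ± 0.127 in the 2-VO group, from 2.25% to 2.55% (SD, n = 5 each). The ranges overlapped over most of their length, and no test was made of this sum over chosen members. Levels within the cluster spanned over 3 orders of magnitude, from 4011 RPM for miR-379-5p, which ranked 31 among the 474 miRNAs, to 1.04 RPM for miR-410-5p. At least 100 RPM was reached by 23 members, and 11 stood under 10 RPM. miR-379-5p, the first hairpin's main product, made up 24.2% ± 1.59 of the cluster in the sham group and 22.3% ± 1.18 in the 2-VO group. The 10 most abundant members together made up 75.2% ± 0.850 and 74.6% ± 0.822. So a few arms carried most of the cluster's reads in each library.

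Level was uneven along the cluster. RefSeq lists 34 of the hairpins on chromosome 6, 32 of them on the plus strand, with Mir379 first and Mir410 last. The 12 hairpins from Mir379 to Mir495 held 61.1% of the cluster's summed RPM, the next 11 from Mir667 to Mir134 held 21.7%, and the last 11 from Mir668 to Mir410 held 17.2%. The median member stood at 196.3, 47.5 and 54.1 RPM in these stretches. Neighbours still differed widely: Mir411 summed to 2610 RPM, while Mir299 beside it summed to 69.0 RPM. These sums count reads of the paired rows above under each name.

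**Figure D1:**
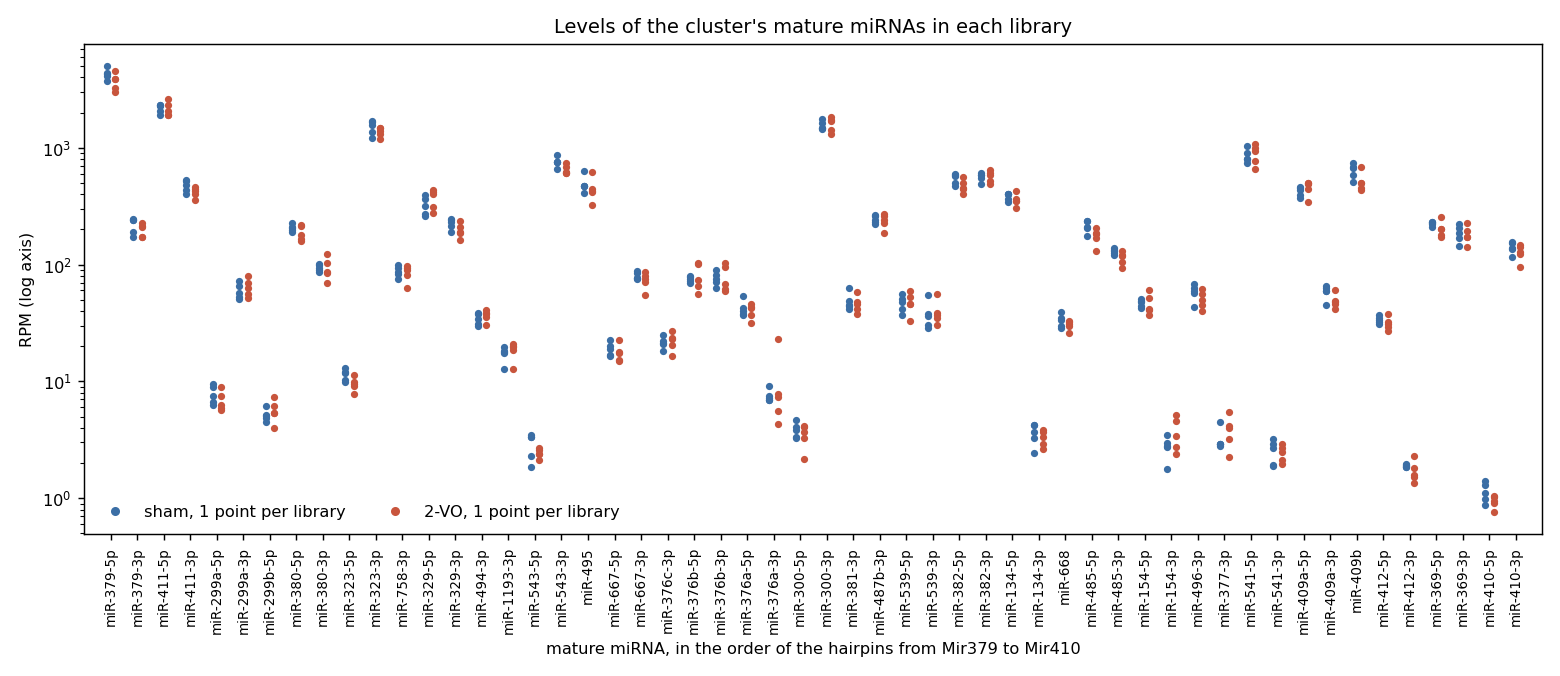
RPM of each of the 54 members on a log axis, ordered along the x axis by hairpin from Mir379 to Mir410, with 1 point per library (5 sham in blue, 5 2-VO in red). Levels differ by over 3 orders of magnitude between members, from 1.04 RPM for miR-410-5p to 4011 RPM for miR-379-5p, while the points of the groups overlap for every member.

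The level rule cut the list at 1 RPM, and the rows nearest to that line were as follows. Just inside it lay miR-412-3p, at 1.81 RPM, and miR-410-5p, at 1.04 RPM. Just outside it lay miR-377-5p, at 0.995 RPM and above 0 in 3 sham and 5 2-VO libraries, and miR-487b-5p, at 0.838 RPM and above 0 in 5 sham and 3 2-VO libraries. Of the 11 rows left out, 7 were listed at 0 in each library, among them miR-381-5p, miR-758-5p and miR-376c-5p, and 4 were above 0 somewhere. No member that passed was at 0 in any library, and the lowest single value, of miR-410-5p, stood for 10 reads.

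Setting 2-VO against sham tests which miRNAs of the hippocampus change when the carotid arteries are closed. No member passed it: 0 of the 54 had an adjusted p under 0.05 (limma's moderated test on log2(RPM + 1), Benjamini-Hochberg over all 474 miRNAs; smallest adjusted p of a member 0.76), and over all 474 the percentage was 0. Limma's voom on whole reads also called 0. At an unadjusted p under 0.05 stood 2 of the 54 members, or 3.70%, below the 5.06% (24) of all 474 miRNAs. Both were lower in 2-VO, where 4.22% of all miRNAs were at that level and lower; 0 members were higher, against 0.844%. This split depended on the scaling and weights. With TMM (trimmed mean of M-values) factors 0 members were lower and 1 higher, against 19 and 18 of all 474 miRNAs. With median-of-ratios factors it was 1 and 1, against 21 and 16, and with array weights 4 and 2, against 30 and 13. With voom 3 members (5.56%) were at that level, all lower, against 5.27% of all. An exact permutation test over the 252 assignments of libraries, whose smallest possible p is 0.0079, put 3 members (5.56%) under 0.05, against 6.75% of all. These were miR-543-3p, miR-323-5p and miR-485-3p, each at an exact permutation p of 0.048, and not the 2 of limma. Those, miR-409b and miR-485-5p, had exact permutation p of 0.087 and 0.063. The groups did not overlap for 0 members, against 0.633% of all. These shares lie near or below those over all miRNAs.

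The count of 2 turned on single libraries. It was 0 without sham replicate 2, sham replicate 3, 2-VO replicate 3 or 2-VO replicate 7, where 2.53% to 4.64% of all miRNAs were at that level, and 1 without sham replicate 1 or sham replicate 4, against 5.70% and 5.27% of all. It was 3 (5.56%) without 2-VO replicate 5, 4 (7.41%) without 2-VO replicate 6 and 5 (9.26%) without 2-VO replicate 8, against 4.22%, 8.86% and 8.86% of all. Without sham replicate 5 it was 7 (13.0%), against 7.81% of all. Each of these members was lower in 2-VO.

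The direction was mostly downward and the size small. Of the 54 members 37 had a log2 fold change below 0 (68.5%), against 62.2% of all 474 miRNAs, and 17 had one above 0. The members' median log2 fold change was -0.092, beside -0.051 over all miRNAs, and single members ran from -0.31 for miR-409b to 0.28 for miR-154-3p. This balance depended on the scaling: with 4 other scalings (to the listed miRNAs, to those outside the cluster, TMM factors, and median-of-ratios factors) 28 to 30 members were lower (51.9% to 55.6%), against 47.9% to 50.4% of all, with a members' median of -0.043 to -0.037. The split of all miRNAs at an unadjusted p under 0.05, 20 lower and 4 higher, became 19 to 21 lower and 14 to 18 higher. On the log2(RPM + 1) scale, changes beyond 1.5-fold, up or down, were outside the 95% interval for 51 members (94.4%). This was so for 406 of the 474 miRNAs (85.7%). Changes beyond 2-fold on that scale were outside it for all 54 members. The added 1 shrinks changes of scarce miRNAs, such as the 11 members under 10 RPM. For the scarcest of them, changes in RPM beyond these limits can lie inside the interval.

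**Figure D2:**
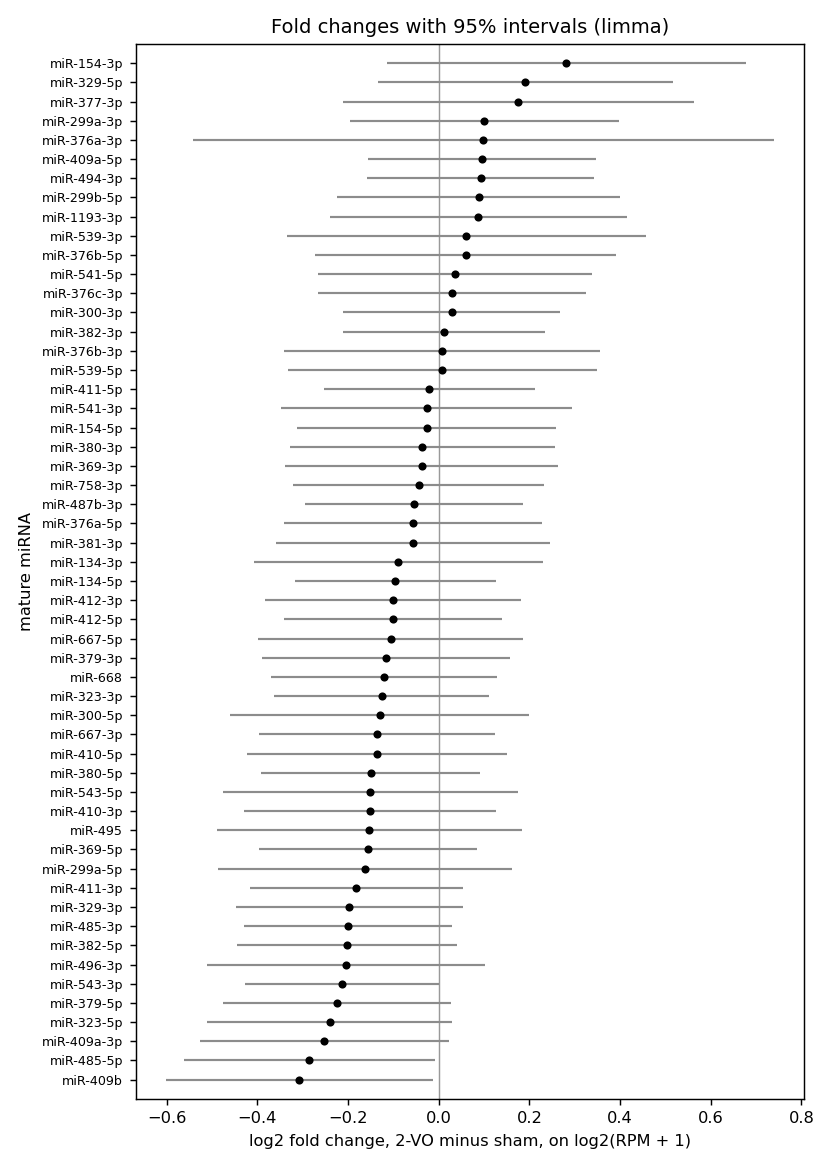
Log2 fold change of 2-VO against sham on the log2(RPM + 1) scale for each of the 54 members (points) with its 95% interval from limma (lines), sorted by size. The points run from -0.31 for miR-409b to 0.28 for miR-154-3p, with the intervals of miR-409b and miR-485-5p below 0 and that of miR-543-3p ending at 0.

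Shifts between libraries were shared by many members, and 1 library stood apart. In 2-VO replicate 3 the median member lay 0.32 below its own mean over the 10 libraries on the log2 scale, while the median of the other miRNAs lay 0.20 below. That library held the lowest value of 37 members, and 0 of the 54 were above their own mean in it. It also had the lowest share of reads on listed miRNAs, 60.3%, and the high sensory and epithelial sum given above, while its sum for miR-375-3p and miR-7a-5p, the pituitary and endocrine list, was 9955 RPM against 16899 to 27406 RPM in the others. Its red blood cell sum of 84.1 RPM and its neuron and brain sum of 170653 RPM were the lowest of the 10 libraries, and its oligodendrocyte sum of 2923 RPM was the highest. Whether these account for the members' low values was not tested. Without 2-VO replicate 3, 28 of the 54 members (51.9%) were lower, with a median of -0.026, beside 50.2% and -0.0020 over all miRNAs. Without 2-VO replicate 7, 36 (66.7%) were lower, with a median of -0.046, beside 53.8% and -0.012 over all. The highest values were spread over more libraries, led by 2-VO replicate 5 with 14 members, sham replicate 2 with 11 and sham replicate 3 with 10.

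**Figure D3:**
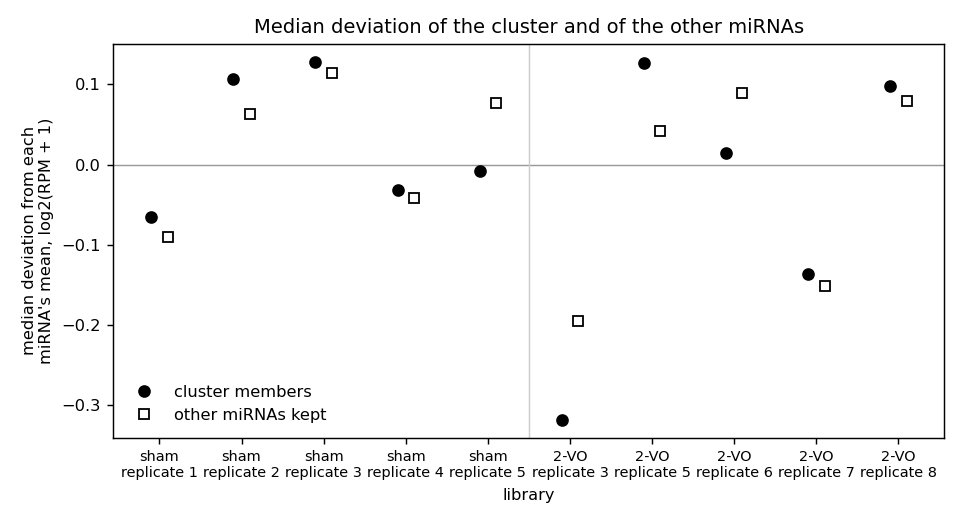
Median deviation of the 54 cluster members (filled circles) and of the 420 other miRNAs of at least 1 RPM (open squares) from each miRNA's mean over the 10 libraries, on the log2(RPM + 1) scale, for each library. 2-VO replicate 3 is lowest for both and has the widest gap between them, at -0.32 and -0.20.

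At the median, spread within groups was far above counting error. The median coefficient of variation within groups was 13.5% for the 43 members of at least 10 RPM and 13.4% for the 296 other miRNAs of that level, while counting alone would give 2.37%. It ran from 9.27% for miR-543-3p to 26.5% for miR-539-3p. By these medians counting error was a small part of the spread. It was a larger part for scarcer members: for miR-323-5p counting alone would give 8.46%, against 12.6% within groups.

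Members with known roles in neuronal activity and synapses are described next. In each list of values below, sham replicates 1 to 5 come first and 2-VO replicates 3, 5, 6, 7 and 8 second. Of the 9 rows of this list, 8 had a log2 fold change below 0 and 1 above, and 1 had an unadjusted p under 0.05, beside 62.2% and 5.06% of all 474 miRNAs.

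miR-134-5p, a brain miRNA found in dendrites that represses the spine regulator Limk1, stood at 365, 398, 405, 402 and 346 RPM in the sham and 307, 353, 362, 351 and 428 RPM in the 2-VO group. The groups overlapped, with 2-VO replicate 3 lowest and 2-VO replicate 8 highest of all. Its log2 fold change was -0.095 ± 0.10 (SE; limma unadjusted p = 0.37). It was -0.040 without 2-VO replicate 3 and -0.16 without 2-VO replicate 8.

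miR-485-5p, which represses a synaptic vesicle protein and dampens presynaptic release in cultured neurons, had the second smallest p of the cluster. It stood at 235, 234, 209, 207 and 176 RPM in the sham and 131, 182, 206, 168 and 188 RPM in the 2-VO group. All 5 2-VO values lay below the sham mean of 212 ± 24.1 RPM (SD, n = 5), but sham replicate 5 lay below 3 of them, so the groups overlapped. The 2-VO mean was 175 ± 28.1 RPM and the log2 fold change -0.29 ± 0.13 (SE; limma unadjusted p = 0.044, adjusted p = 0.76). Without 2-VO replicate 3, its lowest library, the change was -0.19. The other arm, miR-485-3p, stood at 125, 139, 132, 133 and 120.5 RPM and at 94.0, 130.2, 121, 105 and 117 RPM. Here 4 of the 5 2-VO values lay below the sham mean, with 2-VO replicate 3 lowest, and the log2 fold change was -0.20 ± 0.11 (SE; limma unadjusted p = 0.083). Both arms of this hairpin thus leaned the same way, neither past the adjusted threshold.

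miR-329-3p and miR-381-3p have been reported to be induced by neuronal activity and to be needed for dendrite growth in cultured hippocampal neurons. miR-329-3p stood at 241, 231, 246, 213 and 190.4 RPM in the sham and 162, 236, 208, 190.2 and 185 RPM in the 2-VO group. The 2-VO values were mostly lower, except in 2-VO replicate 5, and overlapped those of sham. Its fold change on the log2 scale was -0.20 ± 0.12 (SE; limma unadjusted p = 0.11). miR-381-3p stood at 41.4, 48.8, 63.4, 45.0 and 43.9 RPM and at 37.9, 46.3, 47.9, 41.9 and 58.7 RPM. Its highest value was in sham replicate 3, and the log2 fold change of -0.057 ± 0.14 (SE) turned to 0.042 without that library and to 0.0037 with TMM factors. miR-539-3p, which shares its seed, stood at a mean of 37.7 ± 10.6 RPM in the sham and 39.2 ± 9.80 RPM in the 2-VO group (SD, n = 5 each). Its values were high in sham replicate 5 and 2-VO replicate 5, at 55.3 and 55.8 RPM, against 28.6 to 38.3 RPM in the rest.

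miR-379-5p, the most abundant member, stood at 4315, 4140.3, 4977, 4363 and 3758 RPM in the sham and 2987, 3891, 3883, 3275 and 4519.9 RPM in the 2-VO group. In 4 of the 5 2-VO libraries it was below the sham mean of 4311 ± 442 RPM (SD, n = 5), while 2-VO replicate 8 was above all sham values except that of sham replicate 3. The 2-VO mean was 3711 ± 598 RPM, and the log2 fold change was -0.23 ± 0.12 (SE; limma unadjusted p = 0.076, adjusted p = 0.76). It ran from -0.30 to -0.15 when each library was left out in turn.

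miR-541-5p, a 25-base miRNA reported to act in neurite growth, stood at 806, 899, 797, 739 and 1039.8 RPM and at 653, 945, 1078, 992 and 763 RPM. The libraries of both groups were mixed from the lowest, 2-VO replicate 3, to the highest, 2-VO replicate 6. Its log2 fold change was 0.037 ± 0.14 (SE) and turned to -0.040 without 2-VO replicate 6. miR-410-3p, made from the last hairpin, stood at 115, 154.16, 154.48, 137 and 139 RPM and at 95.1, 146, 123, 128 and 140.0 RPM. Its log2 fold change of -0.15 ± 0.13 (SE; limma unadjusted p = 0.26) was -0.053 without 2-VO replicate 3, again the lowest library.

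The members studied in vessel growth after ischaemia are miR-329-3p, given above, with miR-487b-3p, miR-494-3p and miR-495. In mice, blocking each of these has been reported to raise blood flow recovery after an artery of the leg is closed. None of these 4 had an unadjusted p under 0.05 (limma), against 5.06% of all 474 miRNAs, and 3 had a log2 fold change below 0, against 62.2% of all. miR-487b-3p stood at 232, 261, 266, 223 and 243 RPM in the sham and 187, 268, 242, 226 and 262 RPM in the 2-VO group. The groups overlapped, with 2-VO replicate 3 below all sham values and 2-VO replicate 5 just above them. This gave a log2 fold change of -0.054 ± 0.11 (SE), which lay between 0.00046 and 0.0077 with the 4 other scalings. miR-494-3p stood at 29.96, 37.7, 34.2, 30.8 and 38.7 RPM and at 30.3, 35.7, 38.0, 40.6 and 38.3 RPM. Its 2-VO values lay within or just above the sham range, with a log2 fold change of 0.092 ± 0.12 (SE; limma unadjusted p = 0.45). miR-495, which has also been reported to target Bdnf, stood at 629, 468, 471, 413 and 469 RPM and at 321, 622, 421, 439 and 427 RPM. In each group a single library was far above the others, sham replicate 1 and 2-VO replicate 5, and 2-VO replicate 3 was lowest. Its log2 fold change was -0.15 ± 0.16 (SE; limma unadjusted p = 0.35), and became -0.059 without sham replicate 1, -0.043 without 2-VO replicate 3 and -0.28 without 2-VO replicate 5.

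The lowest fold change of the cluster belonged to miR-409b, the minus-strand row opposite miR-409a-3p. It stood at 680.2, 744, 664.96, 578 and 506 RPM in the sham and 431.05, 500.2, 685, 503 and 456 RPM in the 2-VO group. Of the 2-VO libraries 4 lay below all sham values, while 2-VO replicate 6 stood at 684.7 RPM, above 4 of the 5 sham libraries. Means were 635 ± 92.9 and 515 ± 99.6 RPM (SD, n = 5 each), a log2 fold change of -0.31 ± 0.14 (SE; limma unadjusted p = 0.041, adjusted p = 0.76). The change was -0.42 without 2-VO replicate 6. The row it spans, miR-409a-3p, stood at 59.8, 65.8, 62.8, 59.1 and 45.3 RPM and at 42.0, 47.5, 60.7, 46.2 and 48.6 RPM. The log2 ratio of the rows stayed between -3.49 and -3.21 over the 10 libraries, so they were high and low in much the same ones. The change on the log2 scale was -0.25 ± 0.13 (SE; limma unadjusted p = 0.070). Since reads of the strands cannot be told apart here, these are not independent measurements of separate miRNAs.

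miR-543-3p, which has been reported to regulate N-cadherin in neural precursors, stood at 652, 860.1, 751, 756 and 761 RPM in the sham and 609.8, 619, 683, 609 and 734 RPM in the 2-VO group. All 5 2-VO values lay below the sham mean of 756 ± 73.7 RPM (SD, n = 5), but sham replicate 1 lay among them. The 2-VO mean was 651 ± 55.5 RPM, with a log2 fold change of -0.21 ± 0.0999 (SE; limma unadjusted p = 0.050, adjusted p = 0.76). It had the smallest spread within groups of the members of at least 10 RPM. Its own 5p arm was scarce, at 2.86 ± 0.738 and 2.43 ± 0.226 RPM (SD, n = 5 each).

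The hairpin Mir323 gave the fourth most abundant member. miR-323-3p stood at 1360.1, 1659.8, 1687, 1579.5 and 1217 RPM in the sham and 1310.1, 1390.1, 1461, 1194 and 1487 RPM in the 2-VO group. Sham replicate 5 was the second lowest of all, and the 2-VO values all lay under the sham mean of 1501 ± 204 RPM (SD, n = 5). Its log2 fold change was -0.13 ± 0.11 (SE; limma unadjusted p = 0.27), and leaving out sham replicate 5, sham replicate 3 or 2-VO replicate 7 made it -0.20, -0.081 or -0.078. Its scarce partner miR-323-5p stood at 10.2, 12.01, 13.1, 11.7 and 9.90 RPM and at 7.73, 11.3, 9.43, 9.17 and 9.83 RPM. Again all 5 2-VO values lay below the sham mean, and the log2 fold change was -0.24 ± 0.13 (SE; limma unadjusted p = 0.077).

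Other abundant members stayed close to level between the groups. miR-411-5p, from the hairpin next to Mir379, stood at a mean of 2174 ± 183 RPM in the sham and 2154 ± 310.3 RPM in the 2-VO group (SD, n = 5 each). Its log2 fold change of -0.020 ± 0.11 (SE) changed sign when any of 4 libraries was left out, and with each of the 4 other scalings. miR-300-3p stood at 1557 ± 142 and 1597 ± 227 RPM and miR-382-3p at 563 ± 44.0 and 569 ± 64.9 RPM (SD, n = 5 each). Their log2 fold changes were 0.029 ± 0.11 and 0.012 ± 0.10 (SE), and both changed sign when single libraries were left out. For all 3, a change of 1.5-fold up or down was outside the 95% interval.

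Some of their partner arms leaned lower. miR-411-3p stood at 435, 523, 529.7, 483 and 399 RPM in the sham and 402, 439, 458, 357 and 429.9 RPM in the 2-VO group. All 5 2-VO values lay below the sham mean, and sham replicates 1 and 5 lay among them. The log2 fold change was -0.18 ± 0.11 (SE; limma unadjusted p = 0.12). miR-382-5p stood at 494.50, 597, 571, 579.9 and 468 RPM and at 398, 446, 498, 455 and 564 RPM, with a log2 fold change of -0.20 ± 0.11 (SE; limma unadjusted p = 0.096). Sham replicates 1 and 5 lay within the 2-VO range, and 2-VO replicate 3 was lowest.

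**Figure D4:**
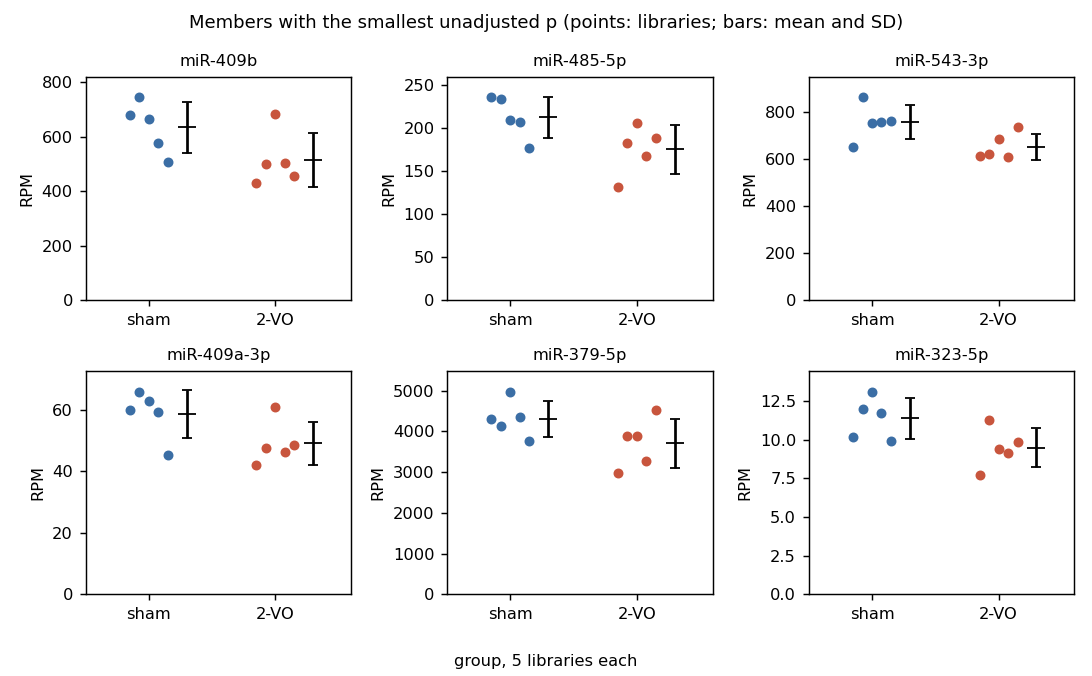
RPM per library (points) with mean and SD (bars) in sham and 2-VO for the 6 members with the smallest unadjusted limma p, with each axis starting at 0. The 2-VO means are lower in all 6 panels, the groups overlap in each, and 2-VO replicate 6 (the central red point) is far above the other 2-VO libraries for miR-409b.

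Members with large upward estimates were scarce or varied strongly, and were singled out after their values were seen. miR-154-3p, at 2.74, 1.78, 3.51, 2.81 and 2.99 RPM in the sham and 2.41, 5.12, 2.74, 3.38 and 4.55 RPM in the 2-VO group, had a log2 fold change of 0.28 ± 0.18 (SE; limma unadjusted p = 0.15). It was 0.18 without sham replicate 2 and 0.17 without 2-VO replicate 5, the lowest and the highest library. miR-329-5p, the more abundant arm of Mir329, stood at 272, 363, 318, 261 and 393 RPM and at 275, 404, 436, 415 and 311 RPM. The log2 fold change was 0.19 ± 0.15 (SE; limma unadjusted p = 0.23), with 3 of the 5 2-VO values above all of sham and the other 2 within the sham range. The change was 0.12 without sham replicate 4, 0.29 without 2-VO replicate 3 and 0.12 without 2-VO replicate 6.

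In the miR-376 group a single library set the value of miR-376a-3p, another member singled out after its values were seen. It stood at 7.22, 9.12, 7.47, 6.88 and 6.98 RPM in the sham and 5.61, 23.0, 7.83, 4.36 and 7.30 RPM in the 2-VO group. The value of 2-VO replicate 5 was far above the next highest of that group, 7.83 RPM, and the log2 fold change of 0.098 ± 0.30 (SE) became -0.25 without it. The same library also held the highest values of miR-376b-5p, miR-376b-3p and miR-376c-3p, at 103.9, 103.7 and 27.0 RPM, whereas miR-376a-5p was highest in sham replicate 5.

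How each hairpin's reads divide between its arms was read from the log2 ratio of 5p to 3p, which hardly depends on the scaling of a library. Both arms were kept for 21 hairpins of the cluster and 132 over the table. The 5p arm was the higher in 14 of the 21 and the 3p arm in 7, and the same arm led in all 10 libraries for 18. Rows were taken as listed here, although reads of some, among them miR-300-3p and miR-409a-3p, can also stand in another row. For miR-409a the higher side changed once the miR-409b row was added, as given below. The arms lay within 2-fold of each other in 6 hairpins, over 10-fold apart in 9 and over 100-fold in 6: miR-134 and miR-541 toward 5p, and miR-300, miR-323, miR-410 and miR-543 toward 3p. miR-376b was the most even, at 77.6 and 76.9 RPM, and miR-300 the most uneven, at 3.65 RPM for 5p and 1577 RPM for 3p, a 432.2-fold difference.

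**Figure D5:**
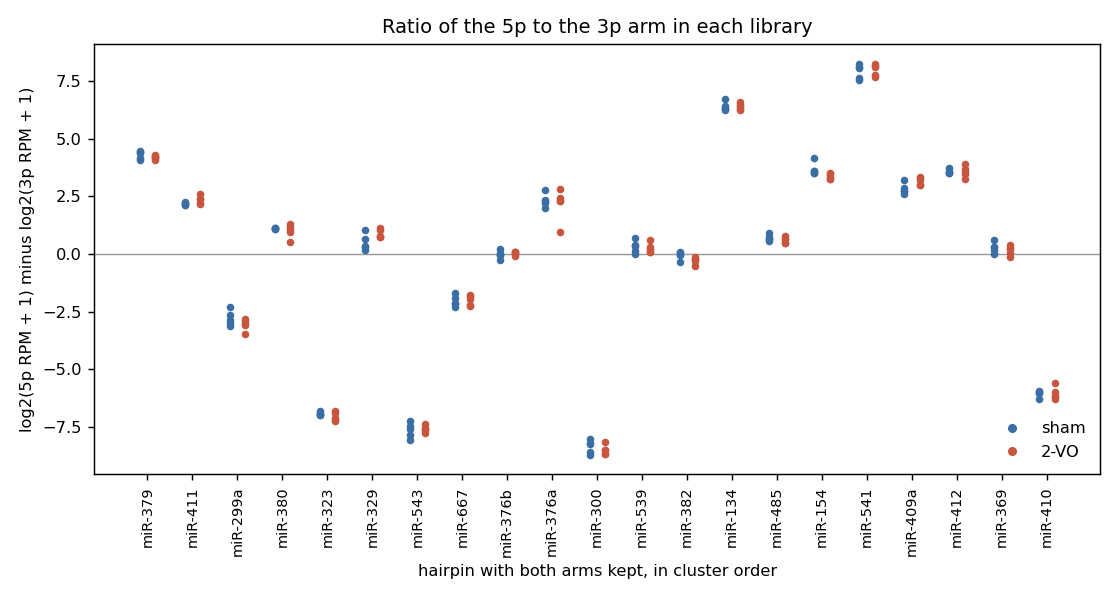
Arm balance, log2(5p RPM + 1) minus log2(3p RPM + 1), for the 21 hairpins with both arms kept, in cluster order, with 1 point per library (sham blue, 2-VO red) and a line at parity. Ratios differ by many units between hairpins and by little between groups; among the 21, only for miR-154 do the groups not overlap.

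No hairpin of the cluster changed its ratio past the adjusted threshold. Of the 21, 0 had an adjusted p under 0.05 (limma, Benjamini-Hochberg over 132 hairpins; smallest in the cluster 0.38), as over all 132, where the percentage was 0. An unadjusted p under 0.05 was found for 3 of the 21 (14.3%), near the 11.4% of all 132. The ratio was lower in 2-VO for 13 of the 21 (61.9%), against 43.2% of all, with a median difference of -0.053 in the cluster and 0.025 over all. That median was between -0.097 and 0.0037 when single libraries were left out. The groups did not overlap for 1 of the 21 (4.76%), miR-154, against 2 of all 132 hairpins (1.52%), with miR-154 among them. The exact two-sided permutation p, not adjusted, was 0.032 for miR-409a, 0.056 for miR-329 and 0.0079, the smallest possible, for miR-154. In 11 hairpins both arms had a fold change below 0, in 2 both were above 0, and in 8 the arms pointed in opposite directions. Unlike the ratio, these directions depend on the scaling, under which 62.2% of all 474 miRNAs were below 0. The same count over all 132 hairpins is not given here.

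miR-409a had the smallest p of these ratios. The ratio on the log2 scale was 2.61, 2.75, 2.86, 2.73 and 3.23 in sham and 3.01, 3.36, 3.01, 3.23 and 3.30 in 2-VO libraries. Only sham replicate 5 lay within the 2-VO range. The difference was 0.35 ± 0.12 (SE; limma unadjusted p = 0.014, adjusted p = 0.38), from a 5p arm at 421.9 ± 37.5 and 453.4 ± 64.4 RPM and a 3p row at 58.6 ± 7.90 and 49.0 ± 7.02 RPM (SD, n = 5 each). Without sham replicate 5 the difference was 0.45 and its adjusted p was 0.049 (limma); over 17 alternative settings the adjusted p ran from 0.049 to 0.906. With a replicate block on the 4 libraries numbered 3 and 5, the difference was 0.14. With the miR-409b row added to the 3p side, as chosen after the data were seen, the 3p side became the higher in each library, and the mean log2 ratio was -0.71 ± 0.242 in the sham group and -0.31 ± 0.216 in the 2-VO group (SD, n = 5 each; exact two-sided permutation p = 0.032). The difference of 0.40 was in the same direction as before. The strand of the reads in the miR-409b row is not given, and which arm was the higher differed between these choices.

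miR-329, whose arms are within 2-fold of each other, had log2 ratios of 0.18, 0.65, 0.37, 0.29 and 1.04 in sham and 0.76, 0.77, 1.06, 1.12 and 0.75 in 2-VO libraries. The 2-VO ratios were all above 4 of the 5 sham ratios, and sham replicate 5 lay among them. The difference was 0.39 ± 0.15 (SE; limma unadjusted p = 0.023, adjusted p = 0.38). Without sham replicate 5 it was 0.52 (limma adjusted p = 0.049), and over 17 alternative settings the adjusted p ran from 0.049 to 0.928. With the replicate block the difference was 0.062. For both hairpins sham replicate 5 was the only sham library to lie with the 2-VO group.

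miR-154 had log2 ratios of 3.59, 4.15, 3.53, 3.52 and 3.60 in sham and 3.48, 3.33, 3.52, 3.26 and 3.25 in 2-VO libraries. The groups touched without overlapping, since the lowest sham and the highest 2-VO ratio were both 3.52 after rounding, and sham replicate 2 was far above the rest. The difference was -0.31 ± 0.13 (SE; limma unadjusted p = 0.029, adjusted p = 0.38), and -0.19 without sham replicate 2. Its 3p arm is scarce, at 2.77 ± 0.627 RPM in the sham and 3.64 ± 1.16 RPM in the 2-VO group (SD, n = 5 each), and its lowest count was 24 reads.

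The hairpins next by p were miR-382, miR-299a and miR-411. miR-382, the hairpin closest to parity after miR-376b, had log2 ratios of 0.0086, 0.042, -0.044, 0.074 and -0.36 in sham and -0.28, -0.52, -0.23, -0.20 and -0.12 in 2-VO libraries. All 2-VO ratios were below 0, and of the sham ratios those of replicates 3 and 5 were. The difference was -0.21 ± 0.11 (SE; limma unadjusted p = 0.072), and its 3p row cannot be told apart from that of miR-3592, as given above. The differences of miR-299a and miR-411 were -0.26 ± 0.16 and 0.16 ± 0.10 (SE), with limma unadjusted p of 0.11 and 0.13. They became -0.14 for miR-299a without sham replicate 1, -0.16 without 2-VO replicate 6, and 0.10 for miR-411 without 2-VO replicate 8.

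The rest of the Dlk1-Dio3 miRNAs lie in other groups of the same imprinted domain, such as miR-127, miR-433 and miR-434. From a list of 17 such names, 23 rows of 26 were kept, and 0 passed the adjusted threshold (limma). Of the 23, 14 had a log2 fold change below 0 and 9 above, with a median of -0.053, beside -0.092 for the 54 cluster members and -0.051 for all miRNAs. The share below 0 over all miRNAs was 62.2%. Unadjusted p under 0.05, found for 5.06% of all miRNAs, was found for 2 of the 23, both lower: miR-666-5p, at 8.20 ± 0.824 RPM in the sham and 6.32 ± 0.367 RPM in the 2-VO group, and miR-433-3p, at 722 ± 73.8 and 602.7 ± 50.5 RPM (SD, n = 5 each). This list summed to 6.91% ± 0.220 of the listed RPM in the sham group and 6.85% ± 0.356 in the 2-VO group (SD, n = 5 each), of which miR-127-3p alone took 5.78% ± 0.190 and 5.74% ± 0.314. The rest of the locus thus exceeded the cluster in level only through that single miRNA.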

How the data were processed

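Per the labels' protocols, total RNA was isolated with Trizol and small RNA libraries were made with a NEBNext kit. Tools named in the submitters' processing notes are BWA and bcl2fastq, with the build rn6. The deposited table holds RPM values made by the authors, 1 column per library, per the file headers. Annotation, strand and multiple matches are not stated in these sources. All 4962 values above 0 were whole reads, to within 0.01 of a read, once a divisor was set for each library. From the RPM, log2(RPM + 1) was fitted for 474 miRNAs of at least 1 RPM on average in R 4.3.3 with limma 3.58.1 as 5 against 5 libraries without covariates. The test was two-sided and moderated, with the variance trended on the mean, and 0.05 was the threshold for p-values adjusted by Benjamini and Hochberg. Fold changes on this scale understate the change of low miRNAs. Arm ratios were fitted likewise over 132 hairpins. The fits were tested on simulated data. Exact permutation tests used all 252 assignments.

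Named members were the 10 most abundant, the 10 with the smallest p, those of the activity and vessel lists, members sharing a seed, the rows next to the level limit and 6 hairpins by p of the arm ratio. The members and lists were chosen with earlier results of these data known. Sequences, strands and hairpin order are RefSeq's for GRCr8, another build than rn6, so no coordinates are given. Alternatives changed the pseudocount (0.5 or 5), the filter (none or 10 RPM), the scaling, weights, trend and block, or left out each library. The planned count model was not run, since no value under 10 reads is listed, and voom on whole reads was added in its place.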

Additional observations from a re-analysis of the deposited data

Results flagged for a closer look

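A library lay far from the other 4 of its group, by the gap to its nearest neighbour relative to the group's range, in 9 of 152 groups of values (54 members and 21 arm ratios, each in sham and 2-VO, and the share of the cluster). Chance gives about 1 in 20, or 7.60. For miR-409b, 2-VO replicate 6 stood at 684.7 RPM and the other 2-VO libraries at 431.05 to 503 RPM. For miR-495, sham replicate 1 stood at 629 RPM and the others at 413 to 471 RPM. For miR-376a-3p, 2-VO replicate 5 stood at 23.0 RPM against 4.36 to 7.83 RPM, and sham replicate 2 at 9.12 RPM against 6.88 to 7.47 RPM. For miR-377-3p, sham replicate 5 stood at 4.53 RPM against 2.82 to 2.90 RPM. Among log2 5p to 3p ratios, miR-154 was at 4.15 in sham replicate 2 against 3.52 to 3.60, and miR-376a at 0.96 in 2-VO replicate 5 against 2.31 to 2.84. The ratio of miR-382 was -0.36 in sham replicate 5 against -0.044 to 0.074, and that of miR-410 was -6.29 in sham replicate 3 against -6.03 to -5.93.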

How the results depend on the processing

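The count of members past the adjusted threshold was 0 under each alternative run. Over all 474 miRNAs it was 0 as well, except with a replicate block on the numbers 3 and 5, which both groups share in their titles: that fit, on 4 libraries, called 8, none of them a member. With so few libraries the fit has little spread left to measure. In its results the block cannot be told apart from the loss of the other libraries. No label says that a number marks a shared animal or day, and the deviations of same-numbered libraries correlated at -0.058 and -0.18. The number of members at an unadjusted p under 0.05, 2 as reported, was 6 (11.1%) with array weights, against 9.07% of all miRNAs, and 0 without the mean-variance trend, against 4.85%. It was 1 (1.85%) scaled to the listed miRNAs or to those outside the cluster, against 7.38%, and 1 with TMM factors, against 7.81%. Without members whose reads another row can hold it was 1 of 39, against 5.06% of all 474 miRNAs. It was 0 with the replicate block, against 4.22%, and 0 to 7 when single libraries were left out, against 2.53% to 8.86%. For arm ratios it was 0 with the replicate block, against 5.30% of all hairpins, and 1 to 4 of the 21 when libraries were left out, against 6.06% to 12.1%; 0 to 3 hairpins of the 132 passed the adjusted threshold. Those were miR-409a, miR-329 and miR-23b without sham replicate 5 and miR-204 without 2-VO replicate 3. The median arm ratio difference was 0.0074 with array weights and -0.097 to 0.0037 when libraries were left out.

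The share of the cluster was 1.78% in sham and 1.66% in 2-VO libraries of all reads behind the RPM, 1.89% and 1.87% of the listed RPM without miR-379-5p, and 1.89% and 1.82% without members whose reads another row can hold.

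Of 35 named fold changes and arm ratio differences, 24 kept their sign under every alternative run. Among the other 11, miR-411-5p was 0.038 scaled to the listed miRNAs, 0.042 with TMM factors, 0.035 with factors from the median of ratios and 0.036 scaled to miRNAs outside the cluster, and miR-487b-3p was 0.0034, 0.0077, 0.00046 and 0.0022 in that order. miR-381-3p was 0.0037 with TMM factors. With the replicate block miR-300-3p was -0.12, miR-541-5p -0.21, miR-382-3p -0.096, miR-494-3p -0.14, miR-539-3p -0.12, miR-329-5p -0.086 and the arm ratio of miR-299a 0.036. When libraries were left out, miR-411-5p ran from -0.093 to 0.023, miR-300-3p from -0.027 to 0.099, miR-541-5p from -0.040 to 0.14, miR-382-3p from -0.035 to 0.068, miR-381-3p from -0.14 to 0.042, miR-487b-3p from -0.10 to 0.027, miR-539-3p from -0.072 to 0.21 and miR-376a-3p from -0.25 to 0.29. The cause of these shifts was not tested. The spread between 5 libraries limits what can be seen: the half-width of a member's 95% interval was 0.21 to 0.64 on the log2 scale.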
